A study of Mus musculus with 12 samples.

Results

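Genes that ERK signalling switches on, most of whose products act back on the pathway, were followed in mouse frontal cortex: Spry1, Spry2, Spry4, Spred1, Spred2, Spred3, Dusp4, Dusp6, Etv4 and Etv5. They were picked by symbol in the GENCODE M21 annotation as a readout of ERK signalling after loss of Hras. All 10 were found among the 54532 genes of the count table, and all 10 passed the filter on low counts that left 17307 genes for testing.

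Messenger RNA was sequenced from the frontal cortex of 12 mice at 9 months of age. The mice were 6 APP/PS1/Hras-/- mice (3 females and 3 males) and 6 APP/PS1 mice (3 females and 3 males), each library coming from 1 mouse. APP/PS1 mice carry transgenes that lead to amyloid deposition in the brain, and both genotypes carried them. APP/PS1/Hras-/- mice in addition lacked a functional Hras gene. The sources used here do not give the APP/PS1 line and its promoter, how the Hras allele was made or the genetic background. No mouse without the APP/PS1 transgenes was among the samples, so the differences describe loss of Hras in the presence of amyloid transgenes.

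Hras is a small GTPase that relays signals from receptor tyrosine kinases to Raf, MEK and ERK. Active ERK induces its own brakes: Sprouty and Spred proteins act on the steps around Ras and Raf, and dual-specificity phosphatases remove the activating phosphates from ERK. Etv4 and Etv5, ETS transcription factors induced downstream of fibroblast growth factor receptors, belong to the same induced programme. In the cortex these transcripts can be made by both neurons and glia, and in bulk tissue fewer cells of a type and less RNA per cell cannot be told apart.

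Hras was 19.4 CPM (that is, read counts scaled to library size and composition) in the lowest, 20.6 CPM in the median and 23.4 CPM in the highest APP/PS1/Hras-/- library, against 73.6, 79.6 and 102 CPM in APP/PS1 libraries, and the genotypes did not overlap. Hras fell by 1.95 on the log2 scale (SE 0.077, edgeR's quasi-likelihood test, Benjamini-Hochberg adjusted p = 3.05e-09). Total counts ran from 13984692 to 20174131 per library, and each of the 10 genes had at least 82 counts in every library. The RNA integrity number (RIN) was 8.3 to 8.5 in APP/PS1/Hras-/- females and 8.6 to 8.7 in APP/PS1/Hras-/- males, against 8.5 to 8.6 in APP/PS1 females and 7.8 to 8.3 in APP/PS1 males. All 12 markers of cortical glutamatergic neurons had counts in every library, with sums of 4960 to 5931 CPM. APP/PS1/Hras-/- male 1 and APP/PS1 female 2 stood apart from the other libraries on the first principal component, which held 23.9% of the variance. Markers of choroid plexus and ependyma, tissues next to the cortex, summed to 21.2 to 603 CPM in APP/PS1/Hras-/- females and 35.8 to 544 CPM in APP/PS1/Hras-/- males. They summed to 59.8 to 3082 CPM in APP/PS1 females and 45.6 to 210 CPM in APP/PS1 males. The sum of 3082 CPM was that of APP/PS1 female 2, and the next APP/PS1 female had 86.4 CPM.

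Set per kilobase of merged exon, the genes fell into a well-expressed and a scarce set. Etv5 had the highest level, 33.0 ± 5.18 CPM per kb (SD, n = 12 libraries), followed by Spred1 at 29.1 ± 3.40, Spry2 at 25.6 ± 3.11, Spred2 at 21.9 ± 2.90 and Dusp6 at 21.7 ± 4.68 CPM per kb. Spred3 stood between the sets at 11.1 ± 1.10 CPM per kb. Dusp4 at 4.51 ± 1.04, Etv4 at 3.58 ± 0.324, Spry4 at 3.49 ± 0.540 and Spry1 at 2.23 ± 0.287 CPM per kb formed the lower set. Neighbours in this order had ranges apart from each other only between Dusp6 and Spred3 and between Spred3 and Dusp4. Dusp4 and Etv4 had overlapping ranges but kept their order in 12 of 12 libraries, while Spred2 and Dusp6, and Etv4 and Spry4, kept theirs in 8 of 12. Within the pairs of close relatives the levels were unequal: Etv5 was above Etv4, Dusp6 above Dusp4, and Spry2 above both other Sprouty genes, with no overlap between libraries.

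**Figure D1:**
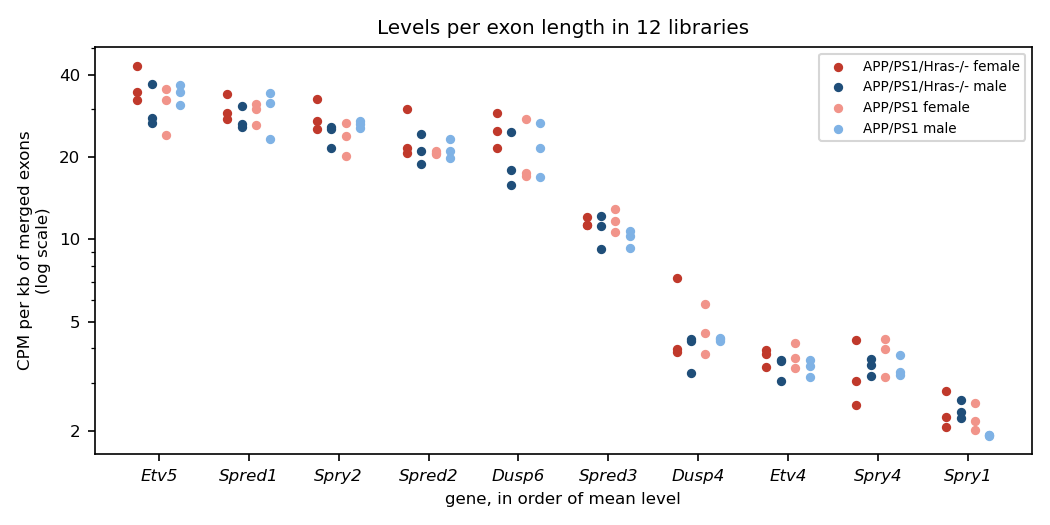
Level of each gene per kilobase of merged exon (CPM per kb, log axis) in every library, genes in order of their mean. Each point is 1 mouse, coloured by genotype and sex. Etv5, Spred1, Spry2, Spred2 and Dusp6 lie above Spred3, and Spred3 lies above Dusp4, Etv4, Spry4 and Spry1, in every library.

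Start-site windows of 300 bases (250 before the RefSeq start and 50 after it, GRCm38.p6) were held for 7 of the 10 genes, 8 windows in all because Etv5 had 2. Their GC content ran from 55.0% (Spred3) to 74.0% (Etv5, first window), above the median of 52.7% over all windows in each of the 8. Their CpG counts ran from 8 in Spred3 to 40 in Spred1, against a median of 7. Both strands were searched for 3 motifs of factors that act in this pathway: the CRE core TGACGTC, the AP-1 site TGANTCA and the ETS site CCGGAAG. Of 32817 windows of the same length, 3.21% held the CRE core, 7.81% the AP-1 site and 8.86% the ETS site. Spred2 held the only match, a CRE core read on the opposite strand that starts at position −53 from the RefSeq start. The other 7 windows did not hold these letters. The GENCODE M21 start of Spred2, 19924375, lies within its window and before the match, so the match falls inside the gene as annotated there. 4 windows are shown, each in the direction of the gene. They are Spred2 (chr11:19924192-19924491, plus strand) for the match, shown in capitals, Spry2 (chr14:105896770-105897069, minus strand) and Etv5 (chr16:22439521-22439820, minus strand) as the pair that varied most closely together, and Dusp6 (chr10:99262981-99263280, plus strand) as the phosphatase selective for ERK.
Spred2: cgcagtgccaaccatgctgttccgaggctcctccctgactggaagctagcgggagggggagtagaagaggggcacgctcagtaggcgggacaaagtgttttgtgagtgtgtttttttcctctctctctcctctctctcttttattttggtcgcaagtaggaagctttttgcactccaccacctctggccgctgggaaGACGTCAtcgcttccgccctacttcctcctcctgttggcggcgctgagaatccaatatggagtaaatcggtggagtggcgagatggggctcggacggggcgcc
Spry2: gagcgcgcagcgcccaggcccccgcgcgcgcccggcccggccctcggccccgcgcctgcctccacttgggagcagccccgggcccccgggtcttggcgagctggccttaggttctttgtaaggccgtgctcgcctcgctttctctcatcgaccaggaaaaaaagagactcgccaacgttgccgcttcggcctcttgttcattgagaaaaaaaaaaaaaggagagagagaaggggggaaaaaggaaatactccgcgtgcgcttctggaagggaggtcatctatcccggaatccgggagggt
Etv5: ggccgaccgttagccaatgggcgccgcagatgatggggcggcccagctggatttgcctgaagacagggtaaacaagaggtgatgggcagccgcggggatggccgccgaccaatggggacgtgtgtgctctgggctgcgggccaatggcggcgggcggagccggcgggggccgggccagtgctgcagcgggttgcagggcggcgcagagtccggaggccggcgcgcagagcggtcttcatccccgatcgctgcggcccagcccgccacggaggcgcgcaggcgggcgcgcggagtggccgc
Dusp6: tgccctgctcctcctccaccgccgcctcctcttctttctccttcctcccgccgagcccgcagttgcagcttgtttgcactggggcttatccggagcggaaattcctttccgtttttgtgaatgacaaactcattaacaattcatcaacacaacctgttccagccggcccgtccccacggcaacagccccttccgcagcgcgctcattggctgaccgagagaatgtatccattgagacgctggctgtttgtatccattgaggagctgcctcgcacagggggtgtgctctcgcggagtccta

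The first comparison asked whether the ERK feedback genes differ between APP/PS1/Hras-/- and APP/PS1 cortex across both sexes. None of the 10 passed the test: 0 of 10 were called, where 3 of all 17307 genes (0.0173%) were. The log2 differences ran from −0.11 (Spry4) to 0.19 (Spry1), with 6 above 0 and 4 below and a median of 0.04. The median over all genes tested was 0.0024. Every adjusted p in edgeR's quasi-likelihood test was 1.0, the lowest unadjusted p was 0.105 (Spry1), and the genotypes overlapped for all 10 genes. Non-overlapping genotypes were seen in 0.116% of all genes. The 95% intervals of the 10 genes reached from −22.8% (Spry4) to 35.6% (Dusp6) relative to the APP/PS1 level.

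Spry1 (ENSMUSG00000037211, GRCm38 chromosome 3, 37639947 to 37644598, plus strand), which in mouse kidney restrains signalling of the receptor Ret, had the largest difference of the Sprouty genes. Its level was 5.98 CPM in the lowest, 6.68 in the median and 8.11 in the highest APP/PS1/Hras-/- library, against 5.58, 5.75 and 7.37 CPM in APP/PS1 libraries. The means were 6.91 ± 0.780 CPM in APP/PS1/Hras-/- and 6.06 ± 0.699 CPM in APP/PS1 cortex (SD, n = 6 each), a log2 difference of 0.19 (SE 0.11, 95% interval −0.05 to 0.43, exact permutation p = 0.0758). Most APP/PS1/Hras-/- libraries lay above most APP/PS1 libraries, with overlap. Gm42922, annotated on the opposite strand within Spry1, had 51 counts over all libraries, and the strand setting of the counting is not known.

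Spry2 (ENSMUSG00000022114, chromosome 14, 105891947 to 105896819, minus strand), which binds the ubiquitin ligase Cbl, was the most abundant Sprouty. It stood at 45.0 CPM in the lowest, 53.3 in the median and 68.3 in the highest APP/PS1/Hras-/- library, against 42.2, 54.2 and 56.7 CPM in APP/PS1 libraries. The means were 54.9 ± 7.64 CPM in APP/PS1/Hras-/- and 52.1 ± 5.43 CPM in APP/PS1 cortex (SD, n = 6 each), a log2 difference of 0.07 (SE 0.096, 95% interval −0.13 to 0.28). The medians were nearly equal, and the highest value came from APP/PS1/Hras-/- female 1. Spry4 (ENSMUSG00000024427), a Sprouty that also binds the kinase Tesk1, had 15.9 ± 2.89 CPM in APP/PS1/Hras-/- and 17.2 ± 2.28 CPM in APP/PS1 cortex (SD, n = 6 each), a log2 difference of −0.11 (SE 0.12, 95% interval −0.37 to 0.16).

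The Spred proteins bring neurofibromin, the GTPase-activating protein encoded by Nf1, to Ras at the membrane. Spred1 (ENSMUSG00000027351, chromosome 2, 117121374 to 117182279, plus strand) stood at 174 CPM in the lowest, 192 in the median and 231 in the highest APP/PS1/Hras-/- library, against 158, 207 and 232 CPM in APP/PS1 libraries. Its log2 difference was −0.02 (SE 0.095, 95% interval −0.23 to 0.18), and the range of APP/PS1/Hras-/- libraries lay within that of APP/PS1 libraries. Spred2 (ENSMUSG00000045671, chromosome 11, 19924375 to 20024026, plus strand) had 105 ± 18.2 CPM in APP/PS1/Hras-/- and 97.2 ± 5.40 CPM in APP/PS1 cortex (SD, n = 6 each), a log2 difference of 0.11 (SE 0.094, 95% interval −0.09 to 0.31). The SD of Spred2 in APP/PS1/Hras-/- cortex rested on APP/PS1/Hras-/- female 1, at 138 CPM, while the other 5 APP/PS1/Hras-/- libraries lay between 87.0 and 112 CPM. Spred3 (ENSMUSG00000037239, chromosome 7, 29158829 to 29170411, minus strand) had 69.9 ± 6.59 CPM in APP/PS1/Hras-/- and 68.0 ± 7.62 CPM in APP/PS1 cortex (SD, n = 6 each), a log2 difference of 0.04 (SE 0.074, 95% interval −0.12 to 0.20). Spred3 lies on the chromosome of Hras, 112 Mb away, and Ggn, which overlaps it on the opposite strand, had 251 counts over all libraries.

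Dusp4 and Dusp6 encode phosphatases of MAP kinases: the Dusp6 protein is cytoplasmic and selective for ERK, and the Dusp4 protein is nuclear. Dusp6 (ENSMUSG00000019960, chromosome 10, 99263231 to 99267489, plus strand) stood at 49.6 CPM in the lowest, 72.3 in the median and 90.6 in the highest APP/PS1/Hras-/- library, against 53.2, 61.1 and 86.1 CPM in APP/PS1 libraries. The log2 difference was 0.06 (SE 0.17, 95% interval −0.31 to 0.44), and both genotypes covered nearly the same range. The Dusp6 interval was the widest of the 10, from −19.6% to 35.6% relative to the APP/PS1 level. Dusp4 (ENSMUSG00000031530, chromosome 8, 34807297 to 34819894, plus strand) had 12.3 ± 3.81 CPM in APP/PS1/Hras-/- and 12.4 ± 1.86 CPM in APP/PS1 cortex (SD, n = 6 each), a log2 difference of −0.02 (SE 0.16, 95% interval −0.35 to 0.32). Its coefficient of variation over the 12 libraries, 23.2%, was the largest of the 10, followed by 21.5% for Dusp6.

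Of the transcription factor genes, Etv4 had the smallest difference of all 10. Etv4 (ENSMUSG00000017724, chromosome 11, 101769742 to 101785371, minus strand) had 11.1 ± 1.0 CPM in APP/PS1/Hras-/- and 11.1 ± 1.10 CPM in APP/PS1 cortex (SD, n = 6 each). Its log2 difference was −0.0032 (SE 0.087, 95% interval −0.19 to 0.18), and it varied least of the 10 over the 12 libraries, by 9.03%. Etv5 (ENSMUSG00000013089, chromosome 16, 22381309 to 22439719, minus strand) stood at 109 CPM in the lowest, 137 in the median and 177 in the highest APP/PS1/Hras-/- library, against 99.1, 138 and 151 CPM in APP/PS1 libraries. The log2 difference was 0.05 (SE 0.13, 95% interval −0.23 to 0.32).

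**Figure D2:**
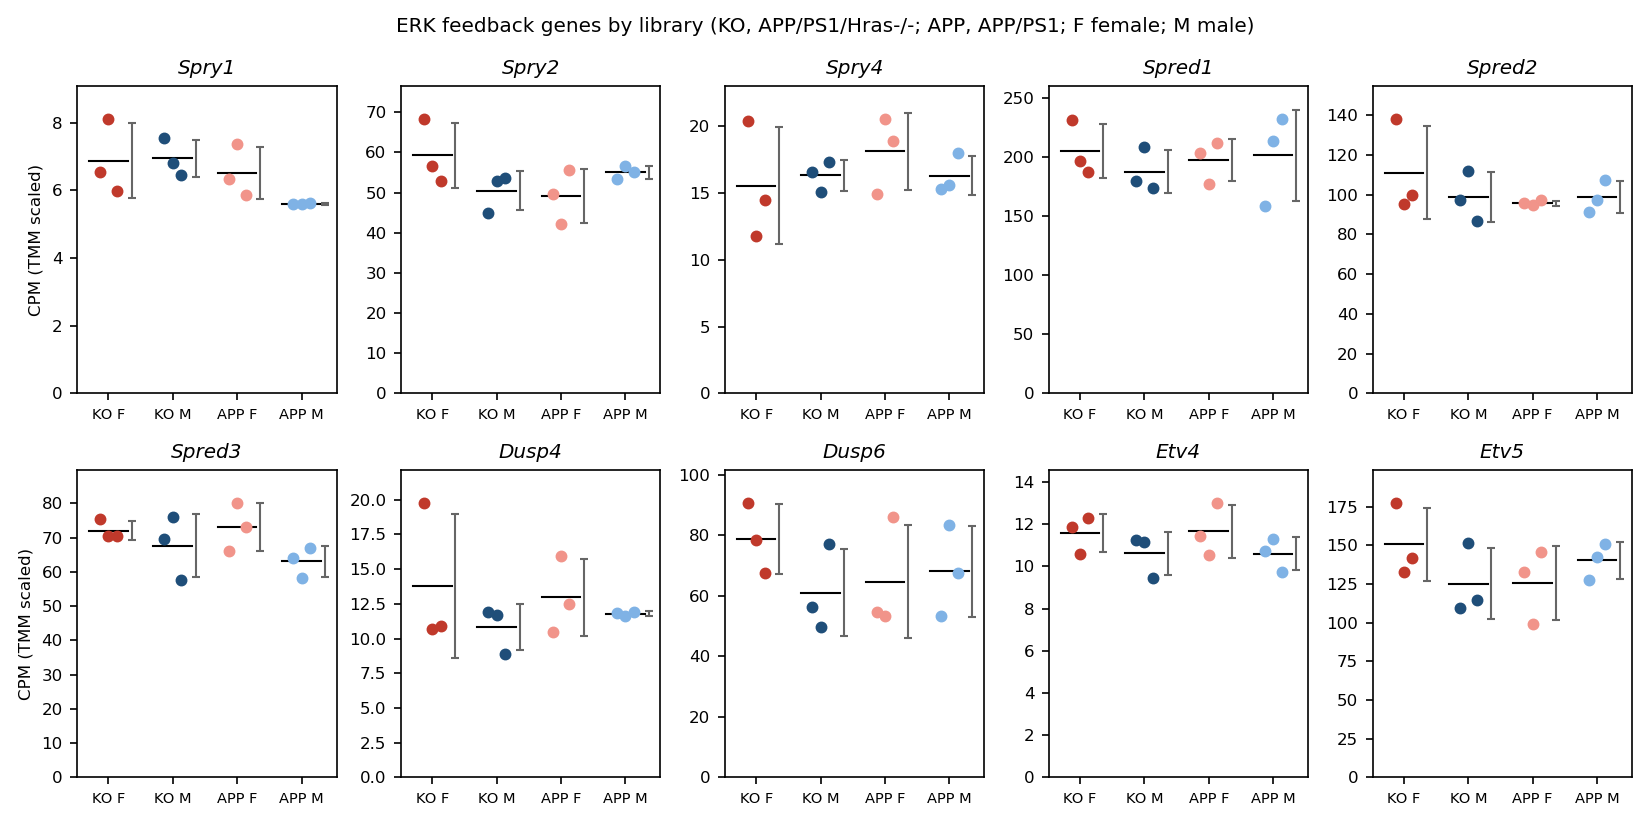
CPM of each gene in every library, by genotype and sex. KO stands for APP/PS1/Hras-/- and APP for APP/PS1, each point is 1 mouse, the black line is the group mean and the bar its SD (n = 3). Taken across sexes, the genotypes overlap in every panel. Within males they are apart for Spry1 only, as they are for 10.3% of all genes. APP/PS1/Hras-/- female 1 gives the highest point for Spry2, Spred2, Dusp4, Dusp6 and Etv5.

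A single library gave many of the highest values. APP/PS1/Hras-/- female 1 was the highest of the 12 libraries for 5 of the 10 genes (Spry2, Spred2, Dusp4, Dusp6 and Etv5) and the lowest for 0, and APP/PS1/Hras-/- male 3 was the lowest for 4. APP/PS1 female 2, the library rich in choroid plexus and ependyma markers, was the lowest for 2 (Spry2 and Etv5) and the highest for 2 (Spry4 and Spred3). With APP/PS1/Hras-/- female 1 left out, 3 of 10 log2 differences across sexes lay above 0 in place of 6, and their median was −0.01. Summed immediate early genes, transcripts induced by neuronal activity, ran from 2319 to 3346 CPM in APP/PS1/Hras-/- females, 1789 to 2952 CPM in APP/PS1/Hras-/- males, 1623 to 2958 CPM in APP/PS1 females and 2327 to 2811 CPM in APP/PS1 males. The highest of these sums, 3346 CPM, was that of APP/PS1/Hras-/- female 1, and the other APP/PS1/Hras-/- females had 2319 and 2495 CPM. APP/PS1/Hras-/- male 3, the lowest library for 4 of the 10 genes, had the highest sum of its group, 2952 CPM. The part of the immediate early genes in the values of the ERK feedback genes was not tested.

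The next comparisons took the genotypes apart by sex. In females 0 of 10 genes passed, where 2 of all 17307 genes (0.0116%) did, and the log2 differences ran from −0.22 (Spry4) to 0.28 (Dusp6) with 7 above 0 and a median of 0.08. The genotypes overlapped in females for all 10, and did not for 9.34% of all genes. In males 0 of 10 passed, where 2 of all genes (0.0116%) did, and the differences ran from −0.16 (Etv5) to 0.31 (Spry1) with 5 above 0 and a median of −0.05. Medians over all genes were 0.0021 in females and 0.0063 in males. In females 5 of 10 differences lay above 0 once APP/PS1/Hras-/- female 1 was left out, with a median of 0.00051. In males, where RIN differed between genotypes, 3 of 10 lay above 0 with RIN as a covariate, with a median of −0.32.

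Spry2 had the lowest p in females. It stood at 68.3, 56.6 and 52.9 CPM in APP/PS1/Hras-/- females, against 49.7, 42.2 and 55.6 CPM in APP/PS1 females. The highest APP/PS1/Hras-/- pair lay above all APP/PS1 females and the ranges overlapped. The log2 difference was 0.27 (SE 0.12, unadjusted p = 0.0383 and adjusted p = 0.991 in edgeR's quasi-likelihood test). Leaving out APP/PS1/Hras-/- female 1 gave 0.15, and leaving out APP/PS1 female 3 gave 0.37. In males Spry2 stood at 45.0, 52.8 and 53.7 CPM in APP/PS1/Hras-/- mice, against 53.3, 56.7 and 55.1 CPM in APP/PS1 mice, a log2 difference of −0.12 (SE 0.12) that ran from −0.18 to −0.045 with 1 library left out.

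Dusp6 and Etv5 had differences of like sign and size to those of Spry2. Dusp6 stood at 90.6, 78.2 and 67.5 CPM in APP/PS1/Hras-/- females, against 54.7, 53.2 and 86.1 CPM in APP/PS1 females, a log2 difference of 0.28 (SE 0.23) that was 0.16 without APP/PS1 female 2 and 0.55 without APP/PS1 female 3. In males it stood at 56.1, 49.6 and 77.1 CPM in APP/PS1/Hras-/- mice, against 53.2, 83.4 and 67.6 CPM in APP/PS1 mice, a log2 difference of −0.16 (SE 0.24). The ranges overlapped in both sexes, and in females APP/PS1 female 3, at 86.1 CPM, lay within the range of the APP/PS1/Hras-/- mice. Etv5 stood at 177, 133 and 142 CPM in APP/PS1/Hras-/- females, against 133, 99.1 and 145 CPM in APP/PS1 females, a log2 difference of 0.26 (SE 0.16) that was 0.11 without APP/PS1 female 2 and 0.38 without APP/PS1 female 3. In males Etv5 stood at 109, 152 and 114 CPM in APP/PS1/Hras-/- mice, against 127, 142 and 151 CPM in APP/PS1 mice, a log2 difference of −0.16 (SE 0.16) that ran from −0.33 to −0.07 with 1 library left out.

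Spry1 had its larger difference in males. There Spry1 stood at 7.55, 6.82 and 6.46 CPM in APP/PS1/Hras-/- mice, against 5.58, 5.59 and 5.63 CPM in APP/PS1 mice. Every APP/PS1/Hras-/- male lay above every APP/PS1 male. No other of the 10 genes had genotypes apart in males, and genotypes were apart in one direction or the other for 10.3% of all genes. The log2 difference was 0.31 (SE 0.16, unadjusted p = 0.0682 and adjusted p = 0.945 in edgeR's quasi-likelihood test), and it lay between 0.25 and 0.35 with any 1 library left out. RIN did not overlap between the genotypes in males either, and with RIN as a covariate the log2 difference of Spry1 was 0.32 (adjusted p = 0.829 in edgeR's quasi-likelihood test). In females Spry1 stood at 6.55, 8.11 and 5.98 CPM in APP/PS1/Hras-/- mice, against 6.33, 7.37 and 5.86 CPM in APP/PS1 mice, a log2 difference of 0.08 (SE 0.15).

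The remaining genes overlapped between genotypes in both sexes. Spred2 had 111 ± 23.5 CPM in APP/PS1/Hras-/- females and 95.8 ± 1.27 CPM in APP/PS1 females (SD, n = 3 each), a log2 difference of 0.21 (SE 0.13), against 0.0015 (SE 0.13) in males. For Spred2 in females, leaving out APP/PS1/Hras-/- female 1 gave 0.026 and leaving out APP/PS1/Hras-/- female 2 gave 0.31. Spry4 differed by −0.22 (SE 0.18) in females (−0.46 to −0.06 when APP/PS1/Hras-/- female 1 or APP/PS1/Hras-/- female 2 was left out) and by 0.0038 (SE 0.18) in males. Dusp4 stood at 19.8, 10.7 and 10.9 CPM in APP/PS1/Hras-/- females, against 10.5, 15.9 and 12.5 CPM in APP/PS1 females, and 1 library in each genotype lay above the other pair. Its log2 difference in females was 0.09 (SE 0.23) with all libraries, and −0.26 when APP/PS1/Hras-/- female 1 was left out. Spred1, Spred3 and Etv4 differed by 0.05, −0.02 and −0.0087 in females and by −0.10, 0.10 and 0.0023 in males.

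**Figure D3:**
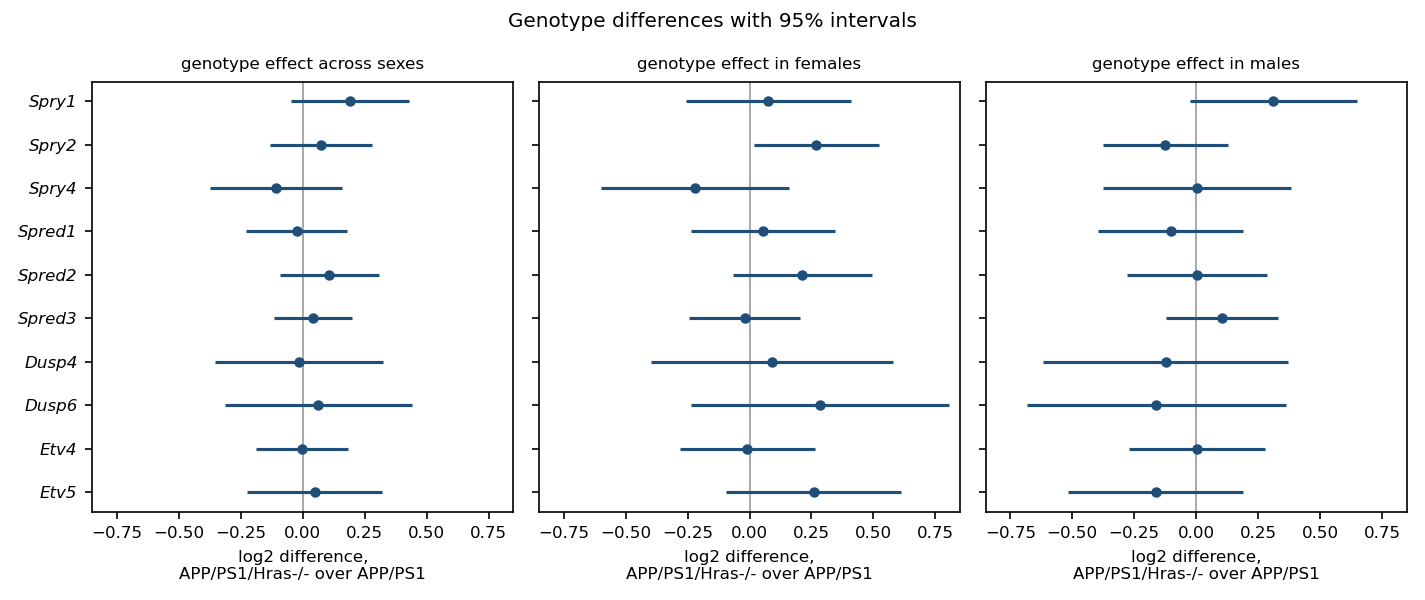
Log2 difference of APP/PS1/Hras-/- over APP/PS1 for each gene, across sexes (left), in females (middle) and in males (right), with 95% intervals. Only the interval of Spry2 in females (0.02 to 0.52) leaves out 0, and Spry2 did not pass the adjusted threshold. The interval of Spry1 in males (−0.03 to 0.65) includes 0.

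Whether the genotype difference itself depended on sex was tested as an interaction, the female difference minus the male difference. None of the 10 genes passed, as did 0 of all 17307 genes (0%). At an unadjusted p under 0.05 there were 1248 genes (7.21%), of which Spry2 was 1, and DESeq2 and limma-voom called 0 genes as well. The Spry2 interaction was 0.39 (SE 0.17, 95% interval 0.04 to 0.75, unadjusted p = 0.0332, adjusted p = 0.667 in edgeR's quasi-likelihood test). Dusp6 followed with 0.44 (SE 0.33) and Etv5 with 0.42 (SE 0.23, unadjusted p = 0.0899), while Spry1 stood at −0.23 (SE 0.22) and Spry4 at −0.22 (SE 0.25). The median of the 10 interactions was 0.19 with all libraries and −0.00052 without APP/PS1/Hras-/- female 1, against −0.0068 over all genes. With RIN as a covariate the interactions were 0.69 for Spry2, 1.11 for Dusp6 and 0.92 for Etv5 (adjusted p = 0.508, 0.580 and 0.517 in edgeR's quasi-likelihood test). Those of Spred1 and Spred2 were 0.92 and 0.63 (adjusted p = 0.401 and 0.552 in the same test), from 0.16 and 0.21 without RIN. Spry1, Spred3 and Etv4 stayed negative, and the median of the 10 was 0.52. RIN did not overlap between the genotypes in males, so there RIN and genotype cannot be told apart. In females RIN differed the other way, 8.3 to 8.5 in APP/PS1/Hras-/- against 8.5 to 8.6 in APP/PS1 mice. RIN thus also followed the interaction, and the share of each cannot be told apart there either.

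Markers of cell types also differed between these groups in point estimate. Of 12 markers of cortical glutamatergic neurons, 10 had a positive difference in females and 2 in males, none of them called. Their sums ran from 5453 to 5931 CPM in APP/PS1/Hras-/- females, 5462 to 5640 CPM in APP/PS1/Hras-/- males, 4960 to 5751 CPM in APP/PS1 females and 5516 to 5820 CPM in APP/PS1 males. Of 11 astrocyte markers, 0 had a positive difference in females and 8 in males, with sums of 5706 to 7125 CPM in APP/PS1/Hras-/- females and 5920 to 7420 CPM in APP/PS1/Hras-/- males, against 6839 to 7473 CPM in APP/PS1 females and 5935 to 6489 CPM in APP/PS1 males. Of 11 microglial markers, 0 had a positive difference in females and 8 in males, with sums of 824 to 1176 CPM in APP/PS1/Hras-/- females and 649 to 1025 CPM in APP/PS1/Hras-/- males, against 1099 to 1224 CPM in APP/PS1 females and 661 to 917 CPM in APP/PS1 males. These counts in males changed with the setting. With RIN as a covariate 5 of 12 glutamatergic, 5 of 11 astrocyte and 2 of 11 microglial markers had a positive difference in males. Without APP/PS1/Hras-/- male 1 and APP/PS1 female 2, 7 of 12 glutamatergic markers did. No marker of these 3 lists was at 0 in any group. Of 11 markers of choroid plexus and ependyma, 0 had a positive difference in females (median −1.91) and 11 in males (median 1.23). Markers of the leptomeninges were positive for 0 of 10 in females and 8 in males, and those of oligodendrocyte precursors for 2 of 10 and 8. Of 11 oligodendrocyte markers, 10 had a positive difference in each sex. Of 12 markers of striatal projection neurons, 1 had a positive difference in females, 3 in males and 1 across sexes (median −0.29 across sexes). Their sums ran from 279 to 768 CPM in APP/PS1/Hras-/- and 228 to 917 CPM in APP/PS1 libraries. Interneuron markers were positive for 6 of 10 in females and 1 in males, and endothelial and mural markers for 5 of 12 and 10. None of these markers was called, and the part of cell type content in the differences between genotypes or sexes was not tested.

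Sex was also compared across genotypes. All 10 genes had a positive log2 difference of females over males, with a median of 0.08, but 0 of 10 passed, where 12 of all genes (0.0693%) did. Over all genes 50.6% of differences were positive. Dusp4 had the largest difference, with 13.4 ± 3.74 CPM in females and 11.3 ± 1.19 CPM in males (SD, n = 6 each), a log2 difference of 0.24 (SE 0.16). Spred3 had the lowest p, with 72.5 ± 4.81 CPM in females and 65.3 ± 7.02 CPM in males (SD, n = 6 each), a log2 difference of 0.15 (SE 0.074, unadjusted p = 0.0591, adjusted p = 0.989 in edgeR's quasi-likelihood test). The sexes overlapped for all 10 genes, as for all but 0.272% of genes tested. Only 5 of 10 differences were positive once APP/PS1/Hras-/- female 1 was left out. All 11 microglial markers had a positive difference of females over males, with 0 called (median log2 difference 0.39). At an unadjusted p under 0.05 in edgeR's quasi-likelihood test there were 9 of the 11, against 4.65% of all genes and 0 of the 10 ERK feedback genes. The microglial sums were 824 to 1224 CPM in females and 649 to 1025 CPM in males. Other lists also leaned to one side, with 0 called. Positive differences were found for 0 of 10 interneuron, 10 of 10 leptomeningeal and 10 of 11 choroid plexus and ependyma markers. They were also found for 13 of 13 tested genes of a list of further ERK outputs, and for 3 of 11 oligodendrocyte markers. The part of microglial or other cell content in the sex differences of the 10 genes was not tested.

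How the genes varied together between mice of the same group was described with correlations of log2 CPM after subtraction of the 4 group means, over 12 libraries. Of 45 pairs, 34 had a positive Pearson's r and 11 were above 0.5. The median r was 0.24, and it ran from 0.11 to 0.39 with 1 library left out. Pairs drawn from all genes tested were not counted in this way. Whether these genes varied together more than other genes did was therefore not tested. In exact permutations within groups no pair passed an adjusted p of 0.05 over the 45 pairs. The closest pair was Spry2 and Etv5, with r = 0.81 and Spearman's rho = 0.80 (exact permutation p = 0.0231 and 0.0309, adjusted p = 0.185 and 0.278). The libraries farthest from the median were APP/PS1/Hras-/- female 1 and APP/PS1 female 2, and r was 0.68 when they were left out.

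Spred1, Spred2 and Etv5 formed a further set of close pairs. Spred1 and Etv5 had r = 0.79 and rho = 0.78 (exact permutation p = 0.00386 and 0.00849, adjusted p = 0.0521 and 0.127), with r = 0.91 without the farthest pair of libraries. Spred1 and Spred2 had r = 0.72 and rho = 0.76 (exact permutation p = 0.00309 and 0.00617, adjusted p = 0.0521 and 0.127), with r = 0.77 without the farthest pair. Spred2 and Etv5 had r = 0.72 and rho = 0.72 (exact permutation p = 0.00463 and 0.0193, adjusted p = 0.0521 and 0.217), with r = 0.51 without APP/PS1/Hras-/- female 1 and APP/PS1/Hras-/- male 2. Spred3 and Dusp4 had r = 0.67 and rho = 0.80 (exact permutation p = 0.00386 for both, adjusted p = 0.0521 and 0.127), with r = 0.68 without the farthest pair. Dusp4 was as close to 2 other genes, with r = 0.78 for Spred2 and 0.77 for Spry4. Exact permutation p was 0.0702 and 0.0741 (adjusted p = 0.333 for both), and r was 0.55 and 0.48 without the farthest pair of libraries. A further pair rested on few mice: Spry4 and Spred2 had r = 0.60 with all libraries and −0.0091 without APP/PS1/Hras-/- female 1 and APP/PS1/Hras-/- female 2. Dusp6 and Dusp4 had r = −0.01, and Dusp6 correlated most closely with Spry2 (r = 0.67). Spry1 stood apart from the rest, with its lowest r against Etv5 (r = −0.56, rho = −0.55, adjusted p = 0.610 and 0.567 in exact permutations), which was −0.23 without the farthest pair of libraries.

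**Figure D4:**
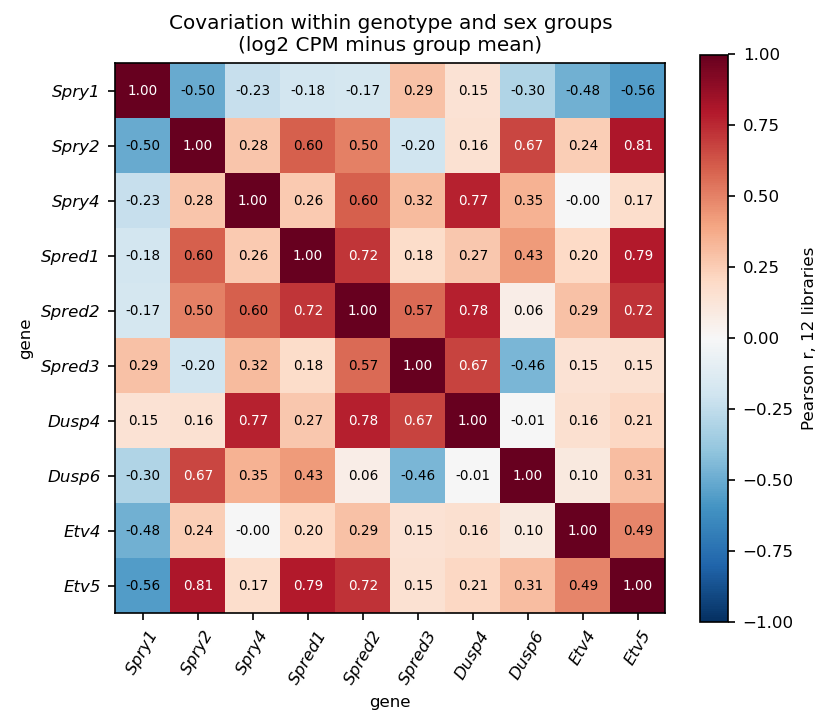
Pearson's r between each pair of genes over 12 libraries, after the mean of each genotype and sex group was subtracted from log2 CPM. Red marks positive and blue negative r, and the number in each cell is r. Spry2, Spred1, Spred2 and Etv5 have r from 0.50 to 0.81 among themselves, and the row of Spry1 is mostly negative. Dusp4 has r of 0.78 with Spred2, 0.77 with Spry4 and 0.67 with Spred3. No pair passed an adjusted p of 0.05 in exact permutations.

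The genes outside the 10 whose within-group pattern was most like the mean of the 10 were taken by rank of r over 12 libraries among the 15348 genes that averaged 1 CPM or more. They were Jrkl (r = 0.93, mean 8.59 CPM), Synj2 (r = 0.92, 138 CPM), Homer1 (r = 0.91, 185 CPM), Ddx3y (r = 0.91) and St14 (r = 0.90, 3.22 CPM). Synj2 stood at 125, 141 and 195 CPM in APP/PS1/Hras-/- females, low to high, against 119, 131 and 142 CPM in APP/PS1 females. Homer1 stood at 166, 188 and 282 CPM in APP/PS1/Hras-/- females, against 141, 173 and 217 CPM in APP/PS1 females. In both genes 1 APP/PS1/Hras-/- female stood above the others and the rest overlapped. Without APP/PS1/Hras-/- female 1, r was between 0.76 (St14) and 0.88 (Homer1). These genes had been picked by r over the same libraries, so r stays high by the choice and is no separate support. Ddx3y lies on the Y chromosome and had 1 count in APP/PS1/Hras-/- female 1 and 0 in the other females. That count gave a residual of 0.43 on the log2 scale, against −0.21 to 0.11 in the other libraries, and r was 0.79 without that library. The mean standardised residual of the 10 genes was 1.15 in APP/PS1/Hras-/- female 1 and between −0.62 and 0.55 in the other libraries.

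Other genes of the pathway were followed in 6 lists, in which Hras was the only gene called in any of the 4 genotype comparisons. Of 8 other MAP kinase phosphatases, 3 lay above 0 across sexes, 7 in females and 0 in males, with medians of −0.03, 0.18 and −0.26. Dusp7, a phosphatase selective for ERK like Dusp6, had 63.2 ± 7.44 CPM in APP/PS1/Hras-/- females and 55.0 ± 4.74 CPM in APP/PS1 females, and 58.5 ± 6.56 CPM in APP/PS1/Hras-/- males and 71.9 ± 6.97 CPM in APP/PS1 males (SD, n = 3 each). Its log2 differences were 0.20 (SE 0.11) in females and −0.30 (SE 0.11) in males, with an interaction of 0.50 (SE 0.16, unadjusted p = 0.00805, adjusted p = 0.667 in edgeR's quasi-likelihood test). Without APP/PS1/Hras-/- male 1 and APP/PS1 female 2, 2 of the 8 phosphatases lay above 0 in males, and 3 did with RIN as a covariate, when 6 of 8 lay above 0 across sexes. Dusp1, an immediate early phosphatase taken for its role and not by rank, had 53.3 ± 20.2 CPM in APP/PS1/Hras-/- and 47.8 ± 15.1 CPM in APP/PS1 cortex (SD, n = 6 each), a log2 difference of 0.16 (SE 0.31).

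Of 14 further genes known as ERK outputs, 13 were tested, and Fosl1 was too low. Point estimates above 0 numbered 6 across sexes, 8 in females and 5 in males, with medians of −0.0066, 0.05 and −0.12. Il17rd, also called Sef and itself an inhibitor of fibroblast growth factor signalling, had 5.33 ± 1.11 CPM in APP/PS1/Hras-/- females and 8.52 ± 2.51 CPM in APP/PS1 females, and 8.31 ± 4.76 CPM in APP/PS1/Hras-/- males and 5.12 ± 0.313 CPM in APP/PS1 males (SD, n = 3 each). Its interaction was −1.37 (SE 0.48, adjusted p = 0.667 in edgeR's quasi-likelihood test), of opposite sign to that of Spry2. Etv1, the third member of the Etv4 and Etv5 family and taken for its role, had 92.3 ± 10.1 CPM in APP/PS1/Hras-/- and 84.6 ± 10.8 CPM in APP/PS1 cortex (SD, n = 6 each), a log2 difference of 0.13 (SE 0.093). Myc, a growth transcription factor, differed by −0.48 (SE 0.22) in males, Lif, a cytokine, by −0.42 (SE 0.24) across sexes, and Epha2, an ephrin receptor, by 0.31 (SE 0.21) across sexes.

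In the cascade from Ras to ERK, 20 of 24 genes lay above 0 across sexes, with a median of 0.04, and only Hras was called. With RIN as a covariate 13 of 24 lay above 0. Nras, a Ras gene taken for its role, had 49.9 ± 2.49 CPM in APP/PS1/Hras-/- and 48.9 ± 4.04 CPM in APP/PS1 cortex (SD, n = 6 each), a log2 difference of 0.03 (SE 0.063). Mapk3, which encodes an ERK kinase and was taken for its role, differed by −0.01 (SE 0.21). Ksr2, a scaffold of the cascade, had the lowest p after Hras, with 90.7 ± 4.87 CPM in APP/PS1/Hras-/- and 80.9 ± 7.91 CPM in APP/PS1 cortex (SD, n = 6 each), a log2 difference of 0.17 (SE 0.069, adjusted p = 1.0).

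Among 31 growth factors, receptors and adaptors upstream of Ras, 20 lay above 0 across sexes (median 0.02), 13 in females and 22 in males. With RIN as a covariate 14 lay above 0 across sexes (median −0.02), 19 in females and 8 in males (median −0.16). Tgfa, a ligand of the epidermal growth factor receptor, had 28.1 ± 3.12 CPM in APP/PS1/Hras-/- females and 37.6 ± 3.12 CPM in APP/PS1 females (SD, n = 3 each), a log2 difference of −0.42 (SE 0.13, adjusted p = 0.991). Fgf9, a fibroblast growth factor made by neurons, had 18.7 ± 2.37 CPM in APP/PS1/Hras-/- females and 14.5 ± 1.22 CPM in APP/PS1 females, and 15.6 ± 1.81 CPM in APP/PS1/Hras-/- males and 18.6 ± 0.783 CPM in APP/PS1 males (SD, n = 3 each), an interaction of 0.63 (SE 0.17, adjusted p = 0.667). Egfr had an interaction of −0.54 (SE 0.17), and Erbb4, a neuregulin receptor, differed by 0.31 (SE 0.11) in males. Of 14 partner proteins of Sprouty and Spred, 11 lay above 0 across sexes (median 0.04), 10 in females and 9 in males. In males 5 did with RIN as a covariate (median −0.06), and in females 7 did without APP/PS1/Hras-/- female 1. Cbl, the ubiquitin ligase that Spry2 binds, differed by −0.17 (SE 0.13) in females and by 0.24 (SE 0.13) in males, and Nf1 by 0.18 (SE 0.10) in males.

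Immediate early genes, which follow neuronal activity partly through ERK, lay above 0 in 25 of 28 cases across sexes, 26 in females and 7 in males, and none was called. Their median log2 differences were 0.06 across sexes, 0.33 in females and −0.13 in males. Leaving out APP/PS1/Hras-/- female 1 left 11 of 28 above 0 across sexes and 19 in females. Fosl2, an AP-1 subunit, had 76.2 ± 17.9 CPM in APP/PS1/Hras-/- females and 53.3 ± 12.3 CPM in APP/PS1 females (SD, n = 3 each), a log2 difference of 0.52 (SE 0.21, adjusted p = 0.991), and Klf4 differed by 0.27 (SE 0.14) across sexes.

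**Figure D5:**
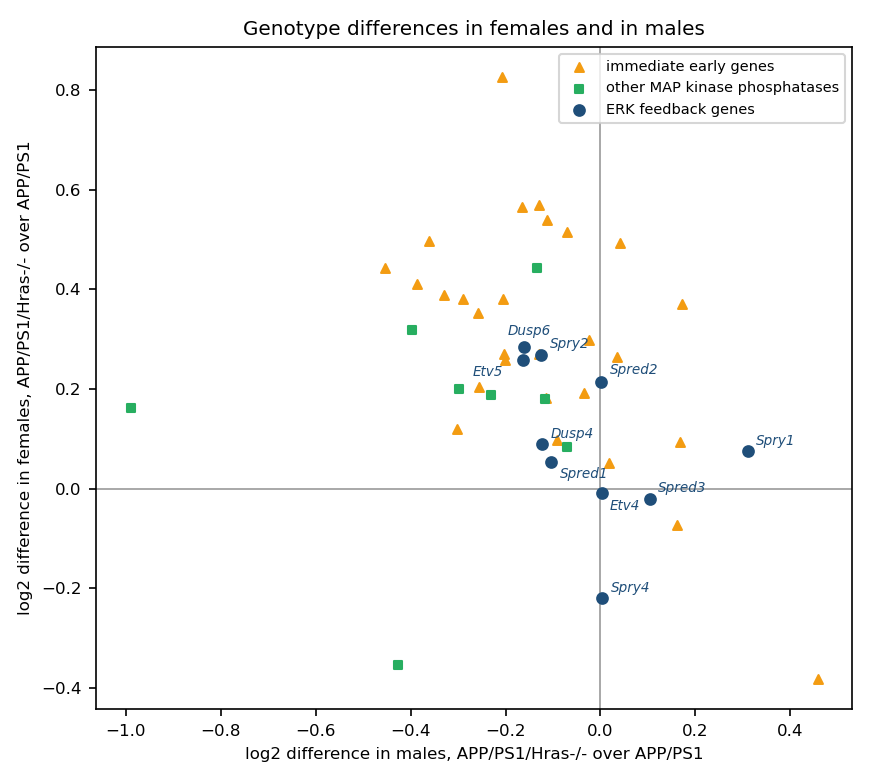
Log2 difference of APP/PS1/Hras-/- over APP/PS1 in females (vertical axis) against that in males (horizontal axis) for the 10 ERK feedback genes, 8 other MAP kinase phosphatases and 28 immediate early genes. Each point is 1 gene. Dusp6, Spry2 and Etv5 lie above 0 in females and below 0 in males, Spry1 lies farthest to the right of the 10, and no gene shown passed the test in either sex.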

How the data were processed

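Frontal cortex mRNA of 12 mice was read on an Illumina instrument from stranded libraries, per the labels' protocols. The authors deposited counts per gene and library, without normalization. Tools in the submitters' processing notes are HISAT2 2.1.0, featureCounts, FastQC 0.11.7 and Trimmomatic 0.33, with the builds mm10 and mm9 without their roles. The sources used here do not state the annotation release, the strand setting or how reads that align to several places were counted. Gene identifiers were matched to GENCODE M21 (GRCm38), and 37 genes, with 0.0099% of counts, had no match.

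From the deposited counts, the filterByExpr rule kept 17307 genes, and edgeR 4.0.16 (R 4.3.3) gave TMM-scaled CPM and quasi-likelihood F tests with robust dispersions and Benjamini-Hochberg adjustment over all genes tested (threshold 0.05). Effects across sexes came from a model of sex and genotype, and effects within sexes and the interaction from 4 group means over all 12 libraries. The F statistic gave the standard errors. The 95% intervals used the t quantile at each gene's total degrees of freedom (prior and residual) in that test. Exact permutation tests were two-sided over libraries. The smallest p that 6 against 6 allow is 0.0022, and the permutations of pairs ran over 1296 within-group orders; these were added after the design had been written. Log2 CPM used a prior count of 2. Libraries are separate mice, no 2 had identical counts, and replicate numbers follow deposition order and do not pair mice. The fits were tested on simulated data.

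The 10 genes, the pathway lists and the marker lists were chosen with earlier results of these data known. Named genes were the 10 members, Hras, called genes of the 6 pathway lists, the 2 genes of each list with the smallest p in each genotype comparison (those described are a subset), and the 5 genes closest to the members' mean residual. Genes taken for their role are said to be so. Some genes of the cascade list are not reported here by name. Alternatives were limma-voom (limma 3.58.1), DESeq2 1.42.0, upper quartile and RLE scaling, filters on low counts, a threshold of 0.1, RIN as a covariate and omission of libraries. Counts of list genes without 1 or 2 libraries or with RIN, and r of the closest genes without APP/PS1/Hras-/- female 1, were added after seeing the data. Promoter windows are from RefSeq (GRCm38.p6).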

Additional observations from a re-analysis of the deposited data

Results flagged for a closer look

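In 22 groups of 6 libraries (the 10 genes and Hras in each genotype), the gap of the highest or lowest library to its nearest neighbour was set against the group's range, with 0.625 as the limit at which chance gives about 1 in 20 groups. In 5 groups the share passed it. Dusp4 in APP/PS1/Hras-/- cortex had the largest share, 0.725, with APP/PS1/Hras-/- female 1 at 19.8 CPM and the next library at 11.9 CPM. Dusp4 in APP/PS1 cortex had 0.636, with APP/PS1 female 2 at 15.9 CPM and the next at 12.5 CPM. Spred3 in APP/PS1/Hras-/- cortex had 0.648, where APP/PS1/Hras-/- male 3 was low at 57.6 CPM and the next library stood at 69.5 CPM. Spred2 in APP/PS1 cortex had 0.647, with APP/PS1 male 3 at 107 CPM and the next at 97.1 CPM. Hras in APP/PS1 cortex had 0.632, with APP/PS1 male 1 at 102 CPM and the next at 83.9 CPM.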

How the results depend on the processing

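The alternative settings gave 1000 results for the 10 genes, 200 in each of 5 comparisons. These count every gene in every setting, so the number of settings was far smaller. None of the 10 genes passed in any of them (lowest adjusted p 0.401), and Hras lay between −2.00 and −1.89 with any 1 library left out. DESeq2 called 7 genes of the whole table across sexes, 5 in females, 4 in males and 27 for sex, and edgeR without a filter called 5 across sexes and 4 in females. The genes called for sex ran from 9 to 20 with 1 library left out, 20 without APP/PS1/Hras-/- male 2. The median interaction ran from −0.00052 to 0.26 with 1 library left out, lowest without APP/PS1/Hras-/- female 1. With RIN as a covariate, the members' median was −0.32 in males and 0.52 for the interaction, and signs changed for Dusp4 (0.0086) and Etv4 (0.0086) across sexes, Spry4 (−0.24) and Spred2 (−0.34) in males and the Spry4 interaction (0.076). In males Spred2 was −5.4e-05 in DESeq2 and −0.0031 in limma-voom, and Etv4 was −0.0023 in limma-voom. Without APP/PS1/Hras-/- male 1 and APP/PS1 female 2, signs changed for Dusp4 across sexes (0.04), Spred1 (−0.02) and Spred3 (0.05) in females, Spry4 (−0.0073) and Etv4 (−0.040) in males, and Spry4 for sex (−0.0014). The cause of these changes was not tested. With each library left out in turn, the log2 differences across sexes that changed sign ran from −0.19 to 0.050 for Dusp4, from −0.018 to 0.16 for Dusp6, from −0.033 to 0.038 for Etv4, from −0.041 to 0.11 for Etv5, from −0.082 to 0.038 for Spred1, from −0.0044 to 0.080 for Spred3, from −0.00014 to 0.13 for Spry2. The log2 differences in females that changed sign ran from −0.26 to 0.26 for Dusp4, from −0.076 to 0.083 for Etv4, from −0.040 to 0.12 for Spred1, from −0.086 to 0.051 for Spred3, from −0.054 to 0.17 for Spry1. The log2 differences in males that changed sign ran from −0.37 to 0.013 for Dusp6, from −0.050 to 0.073 for Etv4, from −0.25 to 0.014 for Spred1, from −0.099 to 0.078 for Spred2, from −0.048 to 0.083 for Spry4. The log2 differences for the interaction that changed sign ran from −0.14 to 0.39 for Dusp4, from −0.079 to 0.081 for Etv4. The log2 differences for sex that changed sign ran from −0.028 to 0.14 for Etv5, from −0.0083 to 0.11 for Spred1, from −0.032 to 0.10 for Spred2, from −0.038 to 0.10 for Spry2, from −0.049 to 0.12 for Spry4. No paired analysis was possible because the mouse numbers in the labels are not shared between groups. Groups of 3 mice limit the within-sex comparisons, whose standard errors reach 0.24.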
